A study of Mus musculus with 3 samples.

Results

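Glycolysis and hypoxia response genes were examined in mpkDCT cells, a mouse kidney line that originates from the distal convoluted tubule. The set holds 39 of the 37074 gene names on the array: a glucose transporter, every enzyme step between hexokinase and lactate, the switches at phosphofructokinase and pyruvate dehydrogenase, lactate carriers, and genes that control or respond to the hypoxia-inducible factor HIF. Genes were chosen by name, and each was read from its brightest probe without a flag, by the mean log2 signal over the 3 arrays. All groups carried a CRISPR-Cas9 knockout of Cyp27b1, the gene for the enzyme that turns calcidiol, 25(OH)D3, into calcitriol, 1,25(OH)2D3. Cells received calcitriol at 1e-07 M, calcidiol at 1e-07 M or vehicle for 24 h, in medium lacking phenol red and holding 2% charcoal-stripped serum, to which they had been moved 24 h earlier. Each group was 1 array, so differences lack any replicate check and no test was run. The tag siCT in the sample titles is left unexplained by the labels, which also do not say how many knockout clones were used.

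Glycolysis splits glucose into pyruvate in the cytosol. Pyruvate then becomes lactate through lactate dehydrogenase or enters mitochondria through pyruvate dehydrogenase, which the PDH kinases switch off by phosphorylation. When oxygen is low, prolyl hydroxylases no longer mark HIF for destruction, and HIF with its partner Arnt raises transcription of glucose transporters, glycolytic enzymes, PDH kinases and the hydroxylase genes themselves. The distal convoluted tubule spends much energy on salt and divalent ion transport and is a classical target of vitamin D. The comparisons ask how each compound, and the 1α-hydroxyl group by which calcitriol differs from calcidiol, related to this gene set when the converting enzyme had been targeted.

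Of the 39 genes, 37 were well above background on all 3 arrays and 2 on none. The values below are scaled signals, the scanner's processed signal with the 75th percentile of every array set to 383.7, and log2 differences of these signals. A value after ± is the technical error the scanner software assigns to the spots, about 0.20 on the log2 scale, which leaves out all variation between cultures. Treatment showed in Cyp24a1, the vitamin D catabolic enzyme and a standard marker of vitamin D receptor activity: its scaled signal was 5499 with calcitriol and 276 with calcidiol, against 2.77 with vehicle, where it was not well above background. The calcitriol signal was at least 398-fold and the calcidiol signal at least 20.0-fold higher than that with vehicle. Cyp27b1 itself was not well above background on these arrays, so it gave no check of the knockout. Spots well above background made up 49.9% of the calcitriol array, 49.7% of the calcidiol array and 51.0% of the vehicle array. Probes printed many times varied by a median of 9.76%, 3.76% and 7.37% on the calcitriol, calcidiol and vehicle arrays, and the file headers mark this measure as out of range for calcitriol and that of the spike-in controls as out of range for calcitriol and vehicle. Of 9 markers of the distal convoluted tubule, Wnk1 and Wnk4 were detected on every array. Pvalb was well above background on the hormone arrays only, at 20.3 with calcitriol and 18.0 with calcidiol, against 13.2 with vehicle. These lay near the lowest signals called well above background on those arrays, 14.0, 17.1 and 13.8. The defining transporters Slc12a3 and Trpm6 and the calcium binder Calb1 were detected on none. The epithelial markers Cdh16, Pax8 and Pax2 were detected, while Cdh1, Epcam, Krt8 and Krt18 were not.

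HIF binds DNA at a short core, ACGTG or GCGTG, so the 250 bases before the transcription start were searched for both on both strands (RefSeq, GRCm38.p6). A core or its reverse complement occurred in at least 1 window of 36 of the 39 genes, against 41.5% of all 27025 genes with a window. Of the set's 59 windows, 46 (78.0%) held one, against 38.6% of all 32851 windows. ACGTG alone was in 45.8% of the set's windows and in 16.6% of all windows. The set's windows also had a median of 13 CpG dinucleotides, against 6 over all windows, and the part of base composition in the motif count was not tested. Windows of 7 genes are shown on the gene's strand with each core in capitals: 5 genes among those at least 1.5-fold lower with calcitriol, then Ldha and Bnip3, which hold the most cores of the windows shown but were less than 1.5-fold apart. The 5 are the glucose transporter gene Slc2a1 at chr4:119108495-119108744 (plus strand), Hk2 at chr6:82774455-82774704, Pfkp at chr13:6648772-6649021, Ankrd37 at chr8:45999851-46000100 and Egln3 at chr12:54203875-54204124 (all minus strand), followed by Ldha at chr7:46845554-46845803 (plus strand) and Bnip3 at chr7:138909507-138909756 (minus strand).
Slc2a1: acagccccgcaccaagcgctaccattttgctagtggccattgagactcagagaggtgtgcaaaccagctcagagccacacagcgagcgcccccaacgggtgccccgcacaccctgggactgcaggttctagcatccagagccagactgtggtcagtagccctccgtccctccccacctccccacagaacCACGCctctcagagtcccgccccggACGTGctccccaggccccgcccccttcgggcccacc
Hk2: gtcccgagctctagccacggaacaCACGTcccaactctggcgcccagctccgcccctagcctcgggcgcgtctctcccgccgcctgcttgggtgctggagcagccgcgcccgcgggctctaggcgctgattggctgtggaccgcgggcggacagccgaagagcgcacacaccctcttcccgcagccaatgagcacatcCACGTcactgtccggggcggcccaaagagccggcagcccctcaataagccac
Pfkp: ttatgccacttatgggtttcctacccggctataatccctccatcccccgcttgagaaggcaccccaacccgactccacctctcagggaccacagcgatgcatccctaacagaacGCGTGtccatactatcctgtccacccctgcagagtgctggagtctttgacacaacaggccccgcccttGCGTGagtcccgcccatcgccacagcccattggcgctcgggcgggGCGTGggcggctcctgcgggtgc
Ankrd37: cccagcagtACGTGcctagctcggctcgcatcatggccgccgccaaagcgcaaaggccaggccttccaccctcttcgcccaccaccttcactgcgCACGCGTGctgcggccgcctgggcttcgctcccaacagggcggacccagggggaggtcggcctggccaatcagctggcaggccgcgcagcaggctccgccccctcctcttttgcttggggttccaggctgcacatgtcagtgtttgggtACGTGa
Egln3: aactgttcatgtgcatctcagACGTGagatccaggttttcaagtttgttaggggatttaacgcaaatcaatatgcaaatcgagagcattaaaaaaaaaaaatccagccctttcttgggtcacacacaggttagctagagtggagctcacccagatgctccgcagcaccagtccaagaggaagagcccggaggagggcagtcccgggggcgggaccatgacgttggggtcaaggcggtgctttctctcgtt
Ldha: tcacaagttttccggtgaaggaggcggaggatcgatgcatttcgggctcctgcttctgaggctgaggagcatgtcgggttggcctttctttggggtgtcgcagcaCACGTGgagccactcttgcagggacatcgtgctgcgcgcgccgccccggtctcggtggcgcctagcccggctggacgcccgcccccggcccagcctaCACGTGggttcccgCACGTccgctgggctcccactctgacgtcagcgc
Bnip3: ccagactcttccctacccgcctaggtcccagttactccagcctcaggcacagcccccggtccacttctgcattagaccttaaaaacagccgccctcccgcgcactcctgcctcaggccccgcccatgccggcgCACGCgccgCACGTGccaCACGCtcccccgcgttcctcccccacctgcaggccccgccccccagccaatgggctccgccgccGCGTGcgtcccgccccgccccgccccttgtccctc
Hk2 holds 2 ACGTG cores, Pfkp 3 GCGTG cores, Ankrd37 2 of each, Egln3 1 ACGTG and Slc2a1 1 of each. Ldha holds 5 ACGTG cores and Bnip3 2 ACGTG and 3 GCGTG. In Ldha 4 of the 5, and in Bnip3 both ACGTG cores, come from the palindrome CACGTG, an E-box, which counts once on each strand. A core was present for 8 of 8 measured genes at least 1.5-fold lower with calcitriol and for 26 of the 29 other measured genes, so it was present in nearly every gene of either group. A match describes these letters only.

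With calcitriol, most of the gene set sat below its vehicle level. The median log2 difference of the 37 measured genes was -0.23, 33 of them (89.2%) were below 0, and none was 2-fold or 1.5-fold higher, as 0.990% and 3.41% of all gene names were. Over all 16962 gene names measured, the median was -0.0051 and 50.8% were below 0. The hexokinase gene Hk2 and the phosphofructokinase gene Pfkp were at least 2-fold lower, 2 of 37, where 1.67% of all gene names were. At 1.5-fold, 8 of 37 (21.6%) were lower, against 6.36% of all gene names: Hk2, Pfkp, Ankrd37, Egln3, Pdk4, Pdk2, Slc2a1 and Aldoc. In bulk RNA, fewer cells of a type and less RNA per cell cannot be told apart.

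With calcidiol, at the same dose and time, the set lay on both sides of vehicle. The median log2 difference was 0.0072, and 18 of the 37 genes (48.6%) were below 0, against -0.0092 and 52.1% over all 16956 gene names. That count of 18 was 30 with each array centred on its median, where 18 were below the median of all gene names, and 27 after normexp with quantile normalisation. No member was 2-fold lower (0.142% of all gene names were) or 2-fold higher (0.867% were), and none passed 1.5-fold in either direction, where 1.34% of all gene names were lower and 2.87% higher. Set directly against calcidiol, the calcitriol array gave a median of -0.24, with 30 of 37 genes (81.1%) below 0, against 0.0024 and 49.6% over 16806 gene names. Only Hk2 was 2-fold lower in this direct comparison, where 1.45% of all gene names were, and at 1.5-fold it was joined by Pfkp, Slc2a1 and Ankrd37, or 10.8% of members against 5.62% of all gene names. None was higher with calcitriol by 2-fold (0.458% of all gene names) or by 1.5-fold (2.18%). Both hormone comparisons use the same vehicle array, so their values are given side by side and not as separate evidence.

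**Figure D1:**
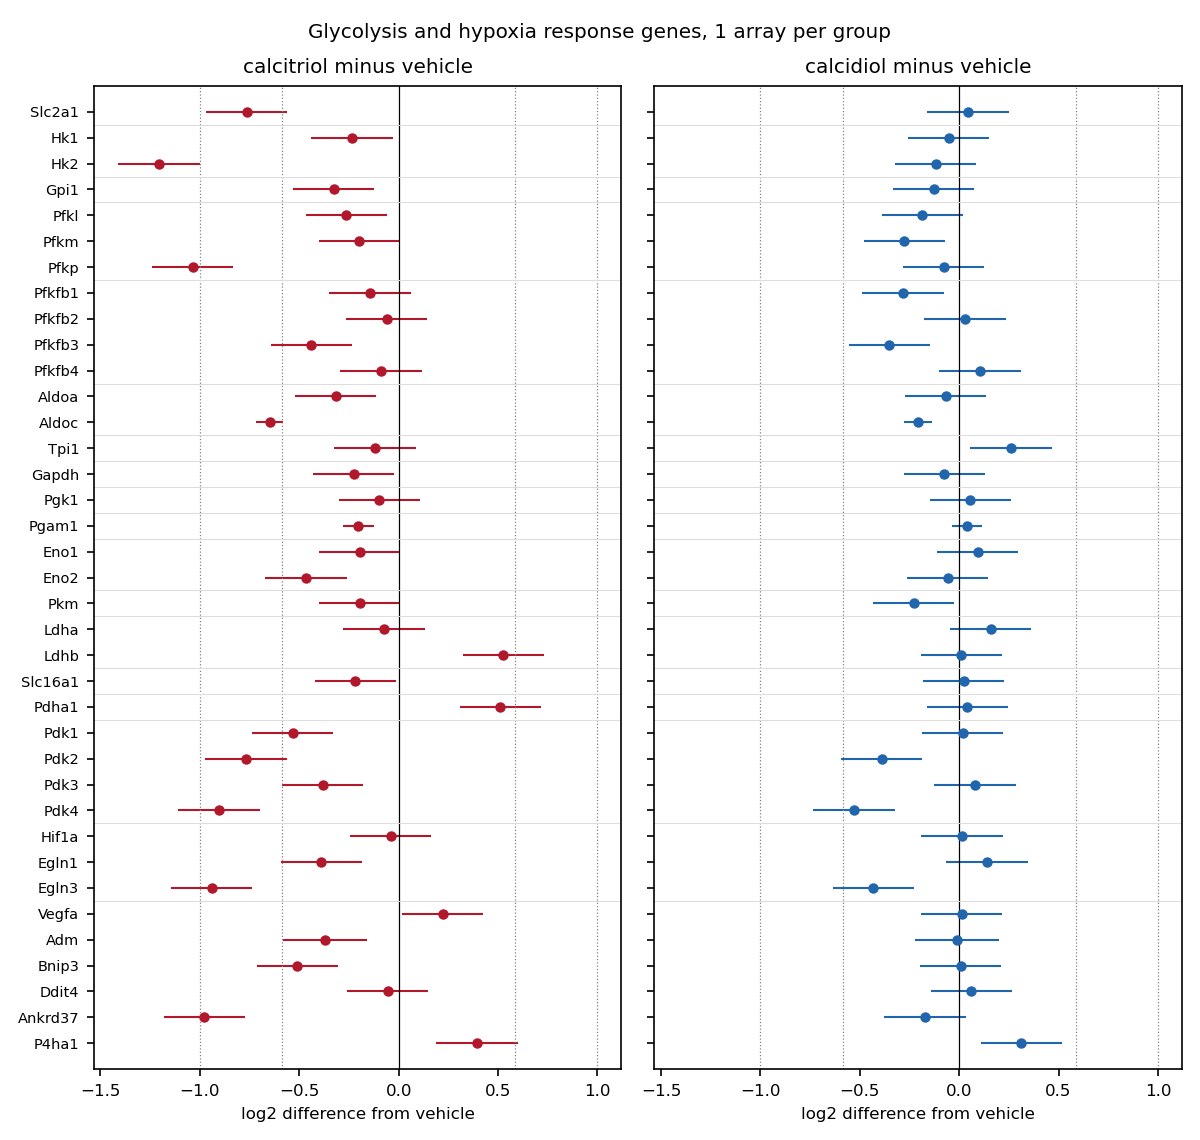
Log2 difference from vehicle of the 37 measured genes, calcitriol on the left and calcidiol on the right, 1 array per group; bars are the technical error of the scanner software, dotted lines mark 1.5-fold and 2-fold, and thin lines part the pathway steps. With calcitriol 33 of 37 points lie left of 0 and Hk2 and Pfkp pass 2-fold; with calcidiol 18 of 37 lie left of 0 and none passes 1.5-fold.

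The technical error gives a scale for single genes. With calcitriol, 15 of the 37 genes lay more than 2 technical errors from vehicle, 13 lower and 2 higher, or 40.5%, against 16.2% of all gene names. With calcidiol 3 did, all lower, or 8.11%, against 7.34% of all gene names. Between calcitriol and calcidiol 14 did, or 37.8%, against 13.6% of all gene names. On the array with calcitriol, 30 of the 37 genes had the lowest of their 3 signals and 4 the highest. The matching shares over all gene names were not counted.

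**Figure D2:**
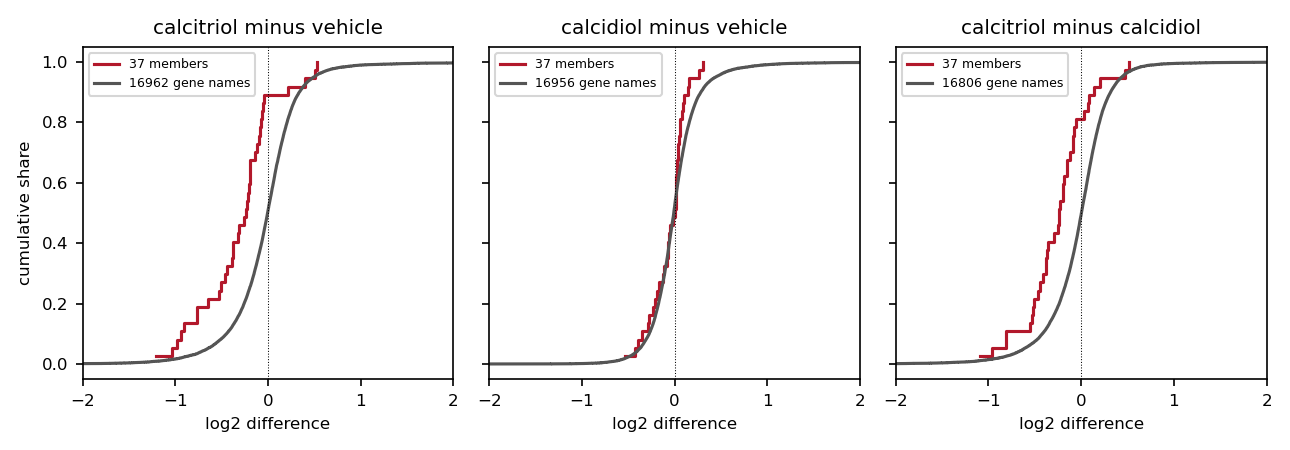
Cumulative share of genes (vertical axis) below each log2 difference (horizontal axis) for the 37 measured set members and for all gene names measured. The members' curve lies left of that of all gene names over most of its range for calcitriol minus vehicle and calcitriol minus calcidiol, with medians of -0.23 and -0.24, and the curves overlie each other for calcidiol minus vehicle.

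Glucose enters through Slc2a1 (GLUT1), the widely expressed facilitative transporter. Its probe (mm9 chromosome 4, 118809864 to 118809923, plus strand) gave 4850.4 with calcitriol and 8494 with calcidiol, against 8239 with vehicle. The calcitriol array was the low one and the others lay close together. The log2 differences were -0.76 ± 0.20 for calcitriol minus vehicle, 0.04 ± 0.20 for calcidiol minus vehicle and -0.81 ± 0.20 for calcitriol minus calcidiol.

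Hexokinase traps glucose as its phosphate. Hk2, the inducible isozyme that docks on mitochondria, is read by a single probe (mm9 chromosome 6, 82675056 to 82675115, minus strand), with scaled signals of 175 with calcitriol and 372 with calcidiol, against 404 with vehicle. Again only the calcitriol array stood apart: the signal was 2.31-fold lower than with vehicle (log2 difference -1.21 ± 0.21), while calcidiol minus vehicle was -0.12 ± 0.21. Calcitriol minus calcidiol was -1.09 ± 0.21. Hk1, the constitutive isozyme, gave 3727 with calcitriol and 4229 with calcidiol, against 4385 with vehicle, a difference of -0.23 ± 0.20 for calcitriol. Another Hk1 probe, within the outermost 6 rows or columns of the array, read -2.22 with calcitriol and 0.66 with calcidiol, and the part of its position in these values was not tested. Gpi1, which isomerises glucose phosphate to fructose phosphate, gave 25354 and 29124 with calcitriol and calcidiol, against 31816 with vehicle (-0.33 ± 0.20 and -0.13 ± 0.20).

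Phosphofructokinase is the committed step and is built from 3 subunit types. Pfkp, the platelet type, gave 2524 with calcitriol and 4904 with calcidiol, against 5179 with vehicle (mm9 chromosome 13, 6580589 to 6580648, minus strand). It was 2.05-fold lower with calcitriol than with vehicle, a log2 difference of -1.04 ± 0.20, against -0.08 ± 0.20 for calcidiol minus vehicle and -0.96 ± 0.20 for calcitriol minus calcidiol. The 3 other Pfkp probes detected on both arrays read -0.98, -1.20 and -1.35 for calcitriol minus vehicle and -0.17, -0.21 and -0.38 for calcidiol minus vehicle, so all 4 gave the larger difference with calcitriol. On their brightest probes, the liver-type gene Pfkl and the muscle-type gene Pfkm stayed within 0.30 of vehicle on both hormone arrays. Their differences were -0.26 ± 0.20 and -0.19 ± 0.20 for Pfkl, and -0.20 ± 0.20 and -0.28 ± 0.20 for Pfkm, with calcitriol and calcidiol. The other detected Pfkl probe read -0.41 with calcitriol and 0.08 with calcidiol. Pfkm has no other probe, and the probe used lay within the outermost rows or columns described above for Hk1. The part of this position in the Pfkm values was not tested.

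The 4 bifunctional PFK-2 enzymes set the level of fructose bisphosphate that activates phosphofructokinase. Pfkfb3, the strongly kinase-biased isozyme, gave 1114 with calcitriol and 1183 with calcidiol, against 1509.9 with vehicle. Both hormone arrays were below vehicle by more than 1 technical error (-0.44 ± 0.20 and -0.35 ± 0.20), and they were 0.09 apart. Pfkfb1, Pfkfb2 and Pfkfb4 were between -0.15 and -0.06 with calcitriol and between -0.28 and 0.11 with calcidiol.

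Aldolase divides the sugar into 2 trioses. Aldoc, the brain-type isozyme whose probe was read from 9 spots and has the smallest technical error of the set, gave 9516 with calcitriol and 12930.4 with calcidiol, against 14928.5 with vehicle. Calcitriol was the lowest array and vehicle the highest, with differences of -0.65 ± 0.07 for calcitriol minus vehicle, -0.21 ± 0.07 for calcidiol minus vehicle and -0.44 ± 0.07 for calcitriol minus calcidiol. Its other probes read -0.71 and -0.81 with calcitriol. Aldoa, the ubiquitous isozyme, gave 80697 with calcitriol and 95875 with calcidiol, against 100430 with vehicle (-0.32 ± 0.20 and -0.07 ± 0.20).

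The genes of the later steps were also below vehicle with calcitriol, none of them by 1.5-fold. Tpi1, which interconverts the trioses, gave 32091 with calcitriol and 41743 with calcidiol, against 34849.5 with vehicle. On this brightest probe calcidiol was the high array and calcitriol was within 1 technical error of vehicle. The 3 other Tpi1 probes read -0.08, -0.01 and -0.28 with calcitriol and 0.09, 0.01 and -0.27 with calcidiol. Gapdh, the dehydrogenase often used as a reference gene, gave 44556 and 49504 with calcitriol and calcidiol, against 52137 with vehicle. Of its 7 probes, 6 were lower with calcitriol than with vehicle and 1 was higher by 0.18. With calcidiol the brightest probe was at -0.07, while the 6 other Gapdh probes averaged 0.14, from -0.03 to 0.46. Gapdh has many near-identical pseudogene copies, and probe specificity was not tested. Pgk1, which makes the first ATP of the pathway, gave 62977 and 69997 with calcitriol and calcidiol, against 67334 with vehicle (-0.10 ± 0.20 and 0.06 ± 0.20), and the arrays thus lay within 1 technical error of vehicle.

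Pgam1, the phosphoglycerate mutase, gave 36070.5 with calcitriol and 42663.5 with calcidiol, against 41507.5 with vehicle, and was -0.20 ± 0.08 with calcitriol and 0.04 ± 0.08 with calcidiol. On this brightest probe, read from 7 spots, only the calcitriol array was low, by more than 2 technical errors. The other Pgam1 probe read -0.16 with calcitriol and -0.11 with calcidiol. The enolase gene Eno1 gave 22325 and 27282 with calcitriol and calcidiol, against 25590.1 with vehicle (-0.20 ± 0.20 and 0.09 ± 0.20). The neuron-type enolase gene Eno2, also read within those outer 6 rows or columns, was at -0.47 ± 0.20 and -0.06 ± 0.20. Pkm, pyruvate kinase, gave 40737 with calcitriol and 39826 with calcidiol, against 46658 with vehicle, both about 0.2 lower on this brightest probe. The 3 other Pkm probes read -0.02, -0.11 and -0.66 with calcitriol and 0.16, -0.03 and -0.47 with calcidiol.

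Taken as a chain, all 15 enzyme genes between hexokinase and pyruvate kinase were below vehicle with calcitriol (median -0.23), of which 3 passed 1.5-fold. With calcidiol 11 of 15 were below vehicle (median -0.07) and none passed 1.5-fold, and 13 of 15 were lower with calcitriol than with calcidiol. Over all gene names, 50.8% were below 0 with calcitriol, 52.1% with calcidiol and 49.6% for calcitriol minus calcidiol. At 1.5-fold, 6.36% of all gene names were lower with calcitriol and 1.34% with calcidiol. When each array was centred on its own median, which put the median of all gene names at 0.12 for calcitriol minus vehicle, 13 of the 15 were below 0 and all 15 were below that median. The median over the 15 was -0.11 in that setting and between -0.32 and -0.23 in the 10 others. For calcitriol minus calcidiol, the same centring left 9 of the 15 below 0 and 13 below the median of all gene names, which was then 0.19.

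**Figure D3:**
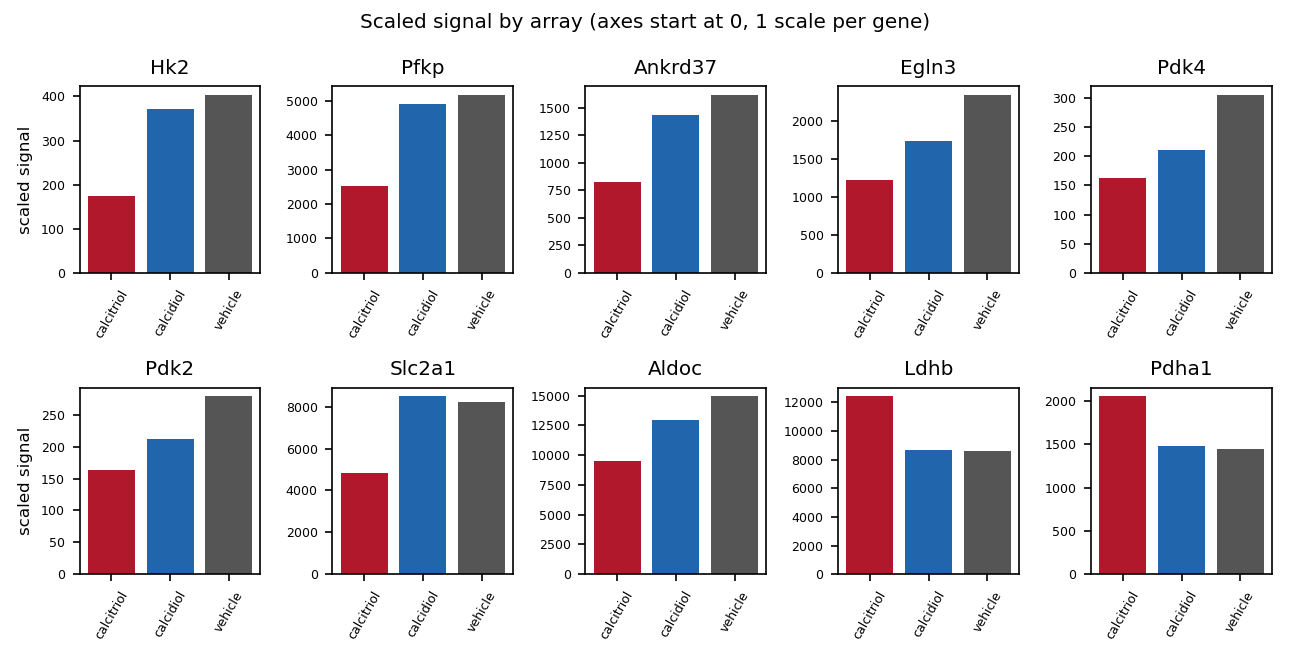
Scaled signal (vertical axis, starting at 0, a scale of its own for each gene) on the calcitriol, calcidiol and vehicle arrays for the 8 genes at least 1.5-fold lower with calcitriol and for Ldhb and Pdha1. The calcitriol bar is the lowest of the 3 in the 8 genes and the highest in Ldhb and Pdha1, where it reaches 12420.5 and 2051.

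At the lactate branch, Ldhb was higher with calcitriol than with vehicle and Ldha was not. Ldha, the muscle-type subunit favoured when pyruvate is turned to lactate, gave 38018 with calcitriol and 44665 with calcidiol, against 40009.9 with vehicle, within 1 technical error of vehicle on both (-0.07 ± 0.20 and 0.16 ± 0.20). Its other probe read -0.30 with calcitriol and 0.22 with calcidiol. Ldhb, the heart-type subunit, gave 12420.5 with calcitriol and 8693 with calcidiol, against 8629 with vehicle. Only the calcitriol array was high, by 0.53 ± 0.20 over vehicle, with calcidiol at 0.01 ± 0.20, and this was the highest of the 37 differences with calcitriol. The other Ldhb probe read 0.65 with calcitriol and 0.25 with calcidiol. Slc16a1 (MCT1), which carries lactate and pyruvate across the membrane, gave 1425 and 1683 with calcitriol and calcidiol, against 1657 with vehicle (-0.22 ± 0.20 and 0.02 ± 0.20). Slc16a3 (MCT4), the export carrier of strongly glycolytic cells, was well above background on none of the arrays.

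The pyruvate dehydrogenase subunit gene Pdha1 and the PDH kinase genes differed in opposite directions with calcitriol. Pdha1, the catalytic subunit that the kinases phosphorylate, gave 2051 with calcitriol and 1479.55 with calcidiol, against 1439 with vehicle, so it was higher by 0.51 ± 0.20 with calcitriol and by 0.04 ± 0.20 with calcidiol. All 4 kinase genes were below vehicle with calcitriol, with a median of -0.65. Pdk4, the starvation-induced kinase, gave 163 with calcitriol and 211 with calcidiol, against 305 with vehicle (-0.90 ± 0.21 and -0.53 ± 0.21). Pdk2, the most widely expressed kinase, gave 164 with calcitriol and 213 with calcidiol, against 279 with vehicle (-0.77 ± 0.21 and -0.39 ± 0.21). For these 2 kinases both hormone arrays were below vehicle and calcitriol was the lower. Pdk1, the HIF-induced kinase, gave 2959 with calcitriol and 4335 with calcidiol, against 4281 with vehicle, and thus stood apart only with calcitriol (-0.53 ± 0.20 and 0.02 ± 0.20). Its 4 other probes averaged -0.83 with calcitriol and -0.28 with calcidiol. Pdk3 showed the same order, -0.38 ± 0.20 with calcitriol and 0.08 ± 0.20 with calcidiol, from a probe within the outer 6 rows or columns. In each of the 11 other settings, the 4 kinases stayed below vehicle with calcitriol.

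**Figure D4:**
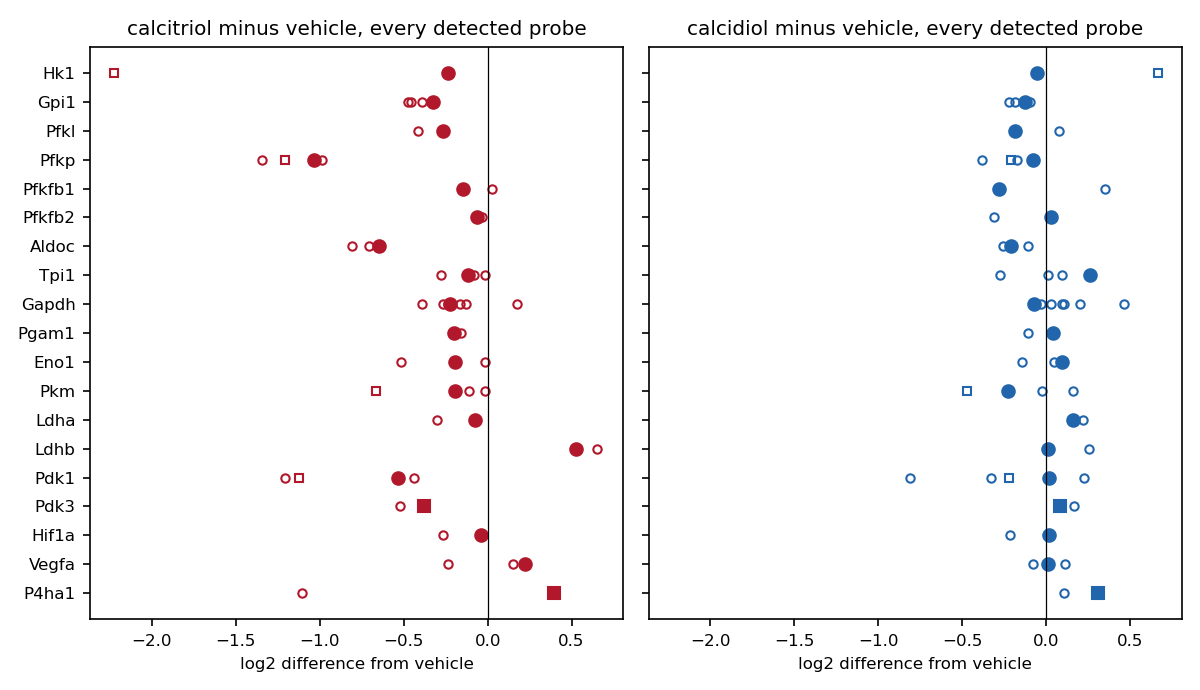
Log2 difference from vehicle of every detected probe of the genes with more than 1 such probe, calcitriol on the left and calcidiol on the right; filled marks are the brightest probe, open marks the others, and squares are probes in the outermost 6 rows or columns of the array. All 4 Pfkp, 3 Aldoc and 5 Pdk1 probes lie below 0 with calcitriol, both Ldhb probes above 0, and the P4ha1 probes on opposite sides.

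The oxygen-sensing genes did not all behave like the enzymes. Hif1a, the regulated subunit of HIF, whose protein rather than its mRNA is controlled by oxygen, was at -0.04 ± 0.20 with calcitriol and 0.01 ± 0.20 with calcidiol. Egln3 (PHD3), a prolyl hydroxylase and itself a HIF target, gave 1221 with calcitriol and 1738 with calcidiol, against 2344 with vehicle (-0.94 ± 0.20 and -0.43 ± 0.20), with its probe at mm9 chromosome 12, 55280953 to 55281012, minus strand. Egln1 (PHD2), the main oxygen sensor, gave 4613 with calcitriol and 6655 with calcidiol, against 6041 with vehicle, lower with calcitriol by 0.39 on the log2 scale and higher with calcidiol by 0.14. Egln3 was thus lower on both hormone arrays and Egln1 on the calcitriol array only.

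Of the 7 HIF targets outside glucose metabolism, 6 were measured. With calcitriol 4 of these (66.7%) were below vehicle, against 50.8% of all gene names. Ankrd37, a small ankyrin-repeat gene that responds to hypoxia, gave 822 with calcitriol and 1437 with calcidiol, against 1619.9 with vehicle (mm9 chromosome 8, 47082404 to 47082463, minus strand). It was 1.97-fold lower with calcitriol than with vehicle (-0.98 ± 0.20), and calcidiol lay within 1 technical error of vehicle (-0.17 ± 0.20). Bnip3, a mitophagy receptor, gave 22168 with calcitriol and 31739 with calcidiol, against 31582 with vehicle, a difference of -0.51 ± 0.20 with calcitriol and 0.01 ± 0.20 with calcidiol. Adm, the vasodilator peptide adrenomedullin, was at -0.37 ± 0.21 and -0.01 ± 0.21. Vegfa, the angiogenic growth factor, was higher with calcitriol by 0.22 ± 0.20, but its other probes averaged -0.04. Ddit4, an inhibitor of mTORC1 signalling, was within 0.10 of vehicle on both hormone arrays. Car9, a carbonic anhydrase often used as a hypoxia marker, was well above background on no array.

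P4ha1, a collagen prolyl hydroxylase subunit, has no settled direction. Its brightest probe, within the outer 6 rows or columns, gave 1942 with calcitriol and 1834 with calcidiol, against 1478 with vehicle (0.39 ± 0.20 and 0.31 ± 0.20). Its other probe, which was not, gave 64.2 and 149 with calcitriol and calcidiol, against 138 with vehicle, or -1.11 and 0.11. Over the set, the other probes' mean had the sign of the brightest probe for 16 of 19 genes with calcitriol, the exceptions being Pfkfb1, Vegfa and P4ha1, and for 9 of 19 with calcidiol.

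Related genes outside the set were read from lists of the same pathways. Among 33 further hypoxia-responsive genes, 26 were measured with calcitriol, with a median of -0.31. Of these, 20 (76.9%) were below 0, against 50.8% of all gene names. Those at least 2-fold lower included Tfrc, the transferrin receptor (-1.07 with calcitriol, -0.49 with calcidiol), and Ero1l, an oxidase of the endoplasmic reticulum (-1.04 and -0.03). Edn1, the endothelin gene, and Stc2, a stanniocalcin, were at least 2-fold higher (1.39 and 1.94 with calcitriol), although the vehicle signal of Stc2 was 17.2, near the lowest signal well above background (13.8). Ppp1r3c, a glycogen-targeting phosphatase subunit, was well above background with calcidiol and vehicle but not with calcitriol, where it was at least 3.79-fold lower than with vehicle. With calcidiol, 16 of 27 (59.3%) were below 0 (median -0.03), against 52.1% of all gene names. None of the 27 was 2-fold lower, and Stc2 was 2-fold higher (1.52).

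Further genes of HIF control were not lower as a group. Of 12 measured, 5 (41.7%) were below 0 with calcitriol (median 0.07), against 50.8% of all gene names. Epas1, which encodes HIF-2α, was the lowest at -0.67 and Arnt the highest at 0.40. The Arnt probe lay in the outermost row or column, and the other Arnt probes averaged -0.10. With calcidiol 8 of the 12 (66.7%) were below 0 (median -0.05), against 52.1% of all gene names. Epas1 was again the lowest at -0.22 and Arnt the highest at 0.87, while the other Arnt probes averaged 0.02. In neighbouring pathways the median with calcitriol was 0.09 over 10 pentose phosphate genes, 0.05 over 10 genes of pyruvate entry and 0.14 over 12 glycolysis regulators. It was -0.15 over 13 genes of gluconeogenesis and glycogen, of which 10 (76.9%) were below 0, against 50.8% of all gene names. Their extremes were H6pd (-0.34) and Pgd (0.28) for the pentose phosphate genes, Pdp1, a PDH phosphatase (-0.54), and Pdhx (0.29) for pyruvate entry, and Mlxipl (-0.23) and the transcription factor gene Myc (0.86) for the regulators. In gluconeogenesis and glycogen, Slc37a4, the glucose phosphate translocase, was lowest (-0.77), and Fbp2, a fructose bisphosphatase, highest (3.07, from a vehicle signal of 17.2). With calcidiol the lowest and highest were Pck2 (-0.45) and Fbp2 (1.29) there, H6pd (-0.19) and Rpia (0.10) for the pentose phosphate genes, Pcx (-0.40) and Mpc1 (0.03) for pyruvate entry, and Txnip (-0.38) and Myc (0.50) for the regulators. Of 14 further genes related by name or function to the enzyme steps, not all of them isozymes, 7 were on no array well above background. Pgam5 was the highest of the 6 measured with calcitriol (0.31). With calcidiol Eno3 was the lowest of 5 (-0.17).

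Some markers of other cell types differed between the arrays as well. The 7 fibroblast markers summed to 10171 scaled units with calcitriol and 11682 with calcidiol, against 10002 with vehicle, nearly all of it Vim, with Pdgfra and Pdgfrb on no array, while Col1a1 gave 104 and 146 with calcitriol and calcidiol, against 251 with vehicle, and Dcn gave 32.7 and 85.8, against 169 with vehicle. Of 8 markers of other nephron segments, Lrp2 and Aqp2 were detected, and the list summed to 5239 with calcitriol and 3749 with calcidiol, against 2113 with vehicle. Lrp2, the proximal tubule receptor megalin, made up most of this, with 5143 and 3649, against 1988 with vehicle, and the defining markers Slc34a1, Umod and Slc12a1 were not above background. Of the 3 endothelial markers only Kdr was detected (67.1 and 97.4 with calcitriol and calcidiol, against 122 with vehicle), with the defining markers Pecam1 and Cdh5 not above background. The leukocyte markers Ptprc and Cd68 were detected and Adgre1 was not, the 3 markers summing to 444 and 523, against 458 with vehicle. Of the 7 Ptprc probes, only the brightest was well above background on both arrays of any comparison. The part of these cell type markers in the differences of the gene set was not tested.

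**Figure D5:**
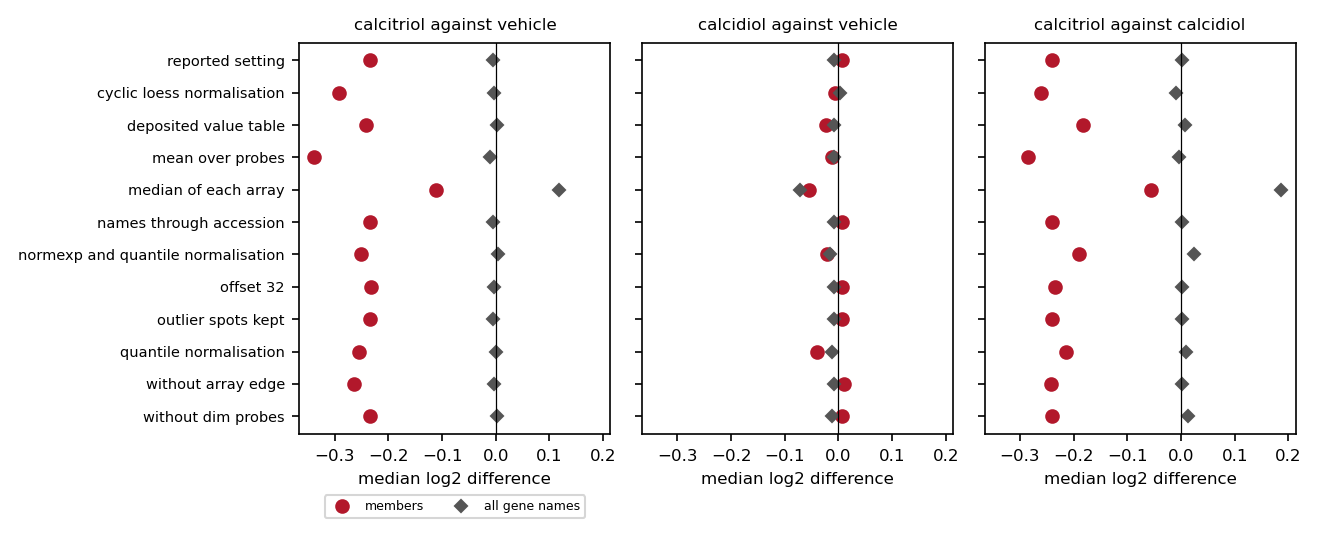
Median log2 difference (horizontal axis) of the gene set and of all gene names under the reported setting and 11 others (vertical axis), for calcitriol against vehicle, calcidiol against vehicle and calcitriol against calcidiol. For calcitriol against vehicle the set's median runs from -0.34 to -0.11 and lies left of that of all gene names in every setting shown; for calcidiol it runs from -0.05 to 0.01.

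Across these settings the set's calcitriol median stayed 0.23 to 0.33 below that of all gene names. The count of genes at least 2-fold lower with calcitriol was less steady and differed both ways. It was 1 when arrays were centred on their medians and 0 after normexp background correction with quantile normalisation, where Hk2 was at -0.93. It was 3 with the mean over probes, where Hk1 was at -1.23, and 3 without the array edge, where P4ha1 was at -1.11.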

How the data were processed

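Total RNA labelled with Cy3 was hybridised to 1-colour Agilent mouse arrays, 1 per group. The deposited intensity of each spot came, per the file headers, from Agilent Feature Extraction 10.7.1.1, with background subtraction and detrending of each array, and probes were placed on mm9. Version 9.5.1.1 is named in the submitters' processing notes instead. A description of the calcidiol sample writes 25(OH)2D3, while its treatment tag, followed here, writes 25(OH)D3. All 3 arrays lay on 1 slide, so position on the slide cannot be told apart from group. Each array held 62976 spots, 59305 of them not controls, for 56605 probes. The intensities the authors deposited were log2-transformed and the 75th percentile of each array (379.8 with calcitriol, 400.8 with calcidiol, 371.1 with vehicle) was subtracted. Control spots and spots with outlier flags were left out, which cost the set none of its 91 probes, and no spot was saturated. Differences were taken only between arrays on which the probe was called well above background. A gene dim on 1 array got a bound, against the probe's own signal there or the lowest signal called above background, whichever was higher. Names are those of the array design; 69 of the 91 probes had an accession in the RefSeq table, and all 69 carried the same name there. A window was counted once for each transcription start in that table.

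No test was run; genes are described against thresholds of 2-fold and 1.5-fold and beside all gene names measured. The named-gene rule gives all members, with the level on every array for those 1.5-fold apart from vehicle and for the brightest member of the other steps, and the extremes and 2-fold members of each pathway list; some genes that the rule takes from those lists are not reported here. The members, lists and rules were chosen with earlier results of these data known. Columns left out as belonging to other samples numbered 0. Counting was tested on simulated data. Normalisation alternatives used limma 3.58.1 in R 4.3.3; the rest was computed in Python 3.11.15 (numpy 2.4.6, pandas 2.3.3) and drawn with matplotlib 3.10.9. The array number limits precision.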

Additional observations from a re-analysis of the deposited data

How the results depend on the processing

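With 1 array per group, no replicate could be left out. No paired analysis was possible because each group has 1 array. The 11 other settings were centring on each array's median, cyclic loess, quantile normalisation, normexp (offset 50) before quantile normalisation, an offset of 32, no probes under the 25th percentile, outlier spots kept, the mean over probes, the deposited value table (already normalised, by a method not given in the sources used here), probes outside the outermost 6 rows and columns, and names through accessions; a 1.5-fold threshold was also tried for counts. For calcitriol against vehicle, the 2 genes at least 2-fold lower became 1 with median centring, 0 with normexp, 3 with the mean over probes or without the array edge, and 8 at 1.5-fold. For calcitriol against calcidiol, the 1 gene became 0 with median centring, normexp or the offset, 2 with the mean over probes, the value table or without the array edge, and 4 at 1.5-fold. The causes were not tested, apart from the threshold. Counts of genes 2-fold higher in the 3 comparisons, and of genes 2-fold lower with calcidiol than with vehicle, were 0 in every setting, the 1.5-fold threshold included. Median centring moved the median of all gene names to 0.12, -0.07 and 0.19 for calcitriol against vehicle, calcidiol against vehicle and calcitriol against calcidiol. The number of the 37 genes below 0 was then 26, 30 and 22, against 33, 18 and 30 as reported. The signs of 29, 19 and 25 of the 37 genes held in all settings in these comparisons. Of 1215 single-gene values, 1182 stayed within the technical error of the reported value. That share was largely fixed beforehand. Median centring moves all genes of a comparison by 1 constant, smaller than the error of probes read from 1 spot. Settings such as names through accessions leave most members unchanged. P4ha1 with calcitriol was -0.36 with the mean over probes and -1.11 without the array edge.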
